A study of Mus musculus with 20 samples.

Results

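Elastin, the fibulins and the lysyl oxidases were followed as 1 gene family across clonal mouse fibroblast lines that can or cannot become fat cells. The family held 10 genes: elastin (Eln), fibulin 1 (Fbln1), fibulin 2 (Fbln2), fibulin 5 (Fbln5), the fibulin-like genes Efemp1 and Efemp2, and the lysyl oxidases Lox, Loxl1, Loxl2 and Loxl3. Every probe set that the platform annotation gave to these symbols was taken, which made 18 of the 45101 probe sets of the array. Of these, 16 carried 1 symbol and stood for 8 genes, and a pair carried both Loxl2 and the predicted gene Gm21451. Efemp2 had no probe set under its symbol and was not analysed here. The family had been chosen by measured values, since the class differences of Efemp1, Fbln5 and Loxl1 in these same arrays were known when it was put together.

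The preadipose group consisted of Swiss 2, Swiss 8 and Swiss 9 with 3 arrays each and Swiss 19 with 2. The non-adipogenic group consisted of Swiss 3, Swiss 5 and Swiss 22 with 3 arrays each. All 7 lines were single clones of Swiss 3T3, an immortalized fibroblast line from mouse embryos, and they shared their parent. All were fed the same medium, DMEM with 10% bovine serum and no inducer of fat-cell formation, and were collected while still dividing, so none of the values belongs to a fat cell. A clone stands for its class only as 1 example of it. Whether a line's arrays stand for separate dishes is not stated in the labels. A p-value built on the spread between arrays therefore measures that spread alone, which may be technical.

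Elastic fibres form when tropoelastin, the soluble product of Eln, collects on a scaffold of fibrillin microfibrils and is crosslinked through its lysines. Fibulins are calcium-binding matrix glycoproteins that bridge the partners. Fibulin 5 and the Efemp2 product bring tropoelastin and the crosslinking enzymes together, and mice without fibulin 5 have loose skin and disordered elastic fibres. Lysyl oxidases are secreted copper enzymes that oxidize lysines of elastin and collagen so that crosslinks can form. Lox acts on both substrates, and Loxl1 is tied to elastic fibre renewal in mice. In connective tissue these genes are products of fibroblasts and smooth muscle cells.

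The start regions of the pair of fibulin genes whose levels lay farthest apart between the classes are shown because preadipose and non-adipogenic line means were fully apart. They come from RefSeq on GRCm38.p6 and hold the 250 bases before each annotated start, 5′ to 3′ on the strand of the gene. Capitals mark every match, on either strand, to 5 short motifs. These were TATAAA (the TATA box), GGGCGG, bound by Sp1, and TGANTCA, a loose form of the AP-1 site with any base at N. The others were CCAAT, the box of NF-Y, and the SMAD letters CAGAC. The first lies at chr11:28852955-28853204 on the plus strand, and the other two lie at chr12:101819120-101819369 and chr12:101818485-101818734 on the minus strand.
Efemp1: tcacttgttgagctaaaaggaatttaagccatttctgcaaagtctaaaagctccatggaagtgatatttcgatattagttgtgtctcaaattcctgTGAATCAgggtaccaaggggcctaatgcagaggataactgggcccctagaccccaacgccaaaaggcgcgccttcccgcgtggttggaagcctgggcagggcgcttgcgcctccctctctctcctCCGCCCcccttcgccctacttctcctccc
Fbln5 start 1: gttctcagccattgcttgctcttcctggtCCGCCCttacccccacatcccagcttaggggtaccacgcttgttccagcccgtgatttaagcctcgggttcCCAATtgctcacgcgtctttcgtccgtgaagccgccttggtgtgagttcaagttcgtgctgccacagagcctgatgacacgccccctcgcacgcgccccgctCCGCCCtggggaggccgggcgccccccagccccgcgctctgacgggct
Fbln5 start 2: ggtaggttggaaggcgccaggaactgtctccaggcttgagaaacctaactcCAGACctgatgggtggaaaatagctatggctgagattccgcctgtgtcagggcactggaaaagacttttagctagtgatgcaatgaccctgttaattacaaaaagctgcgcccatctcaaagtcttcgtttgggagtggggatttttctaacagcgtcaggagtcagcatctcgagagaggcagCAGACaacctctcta

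The Efemp1 region held GGGCGG in 1 place and TGANTCA in 1 place, where it is spelled TGAATCA. Among 32851 mouse promoters of the same length, 32.7% held GGGCGG and 6.75% held TGANTCA. The first Fbln5 region held GGGCGG in 2 places and CCAAT in 1, and the second held CAGAC in 2. CCAAT was present in 33.8% and CAGAC in 42.2% of all promoters, so those letters are common. None of the 3 regions held TATAAA, which 12.4% of all promoters held. The GC content was 53.6% for Efemp1 and 65.2% and 49.6% for the Fbln5 starts, against a median of 52.4% over all promoters. Start regions on chromosome 18, where Lox lies, were left out for the family, and the rest matched 5 of the 10 genes. A match of letters is a description of the sequence and no evidence that a factor binds there.

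Levels are given as scaled intensity, which is the deposited linear intensity after each array was scaled to a trimmed mean of 500. Differences are given on the log2 scale of intensity + 32 after quantile normalization, where the added 32 shrinks the difference of a dim gene. Background was taken from 27 bacterial control probe sets with no spike, at their 95th percentile, and lay between 76.7 and 144 in the 7 lines. Mean intensity differed 5.97-fold between the brightest and the dimmest array. By the hybridization spikes, 11 arrays were dim, all those of Swiss 2, Swiss 8 and Swiss 9 with 2 of Swiss 3, and 9 were bright, those of Swiss 19, Swiss 5 and Swiss 22 with 1 of Swiss 3. A class difference within dim arrays thus sets 3 preadipose lines against Swiss 3 alone. Within bright arrays it sets Swiss 19 alone against 3 non-adipogenic lines. Levels of different probe sets are not set against each other, because each probe set binds with its own strength. In lysates, fewer cells that express a gene and less RNA per cell cannot be told apart. All 8 fibroblast markers, collagen genes and Vim among them, lay above background in every line, while Pecam1, Ptprc, Itgam, Cdh1, Cidec and Myog, which define endothelial, blood, epithelial, fat and muscle cells, lay above it in none. Of the same lists, Cd68, Epcam, Krt8, Fabp4 and Ckm lay above it in all 7 lines, Kdr and Cdh5 in 3 preadipose and 3 non-adipogenic lines, Myod1 in 1 and 3, Tek in 1 and 1, Krt18 in 1 and 0, and Adipoq in 0 and 1. The smooth muscle list had 3 of 5 markers above background in all lines and Myh11 in none, with a summed scaled intensity of 30906 to 86862 in preadipose and 19749 to 42557 in non-adipogenic lines. These sums overlapped between the classes, and any part of them in the results below was not tested.

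Efemp1, which encodes the matrix glycoprotein fibulin 3, separated the classes most widely in this family. In preadipose cells its probe set 1427183_at read 3075, 2560 and 2755 in Swiss 2, 1701, 2336 and 2139 in Swiss 8, 1311, 1605 and 1744 in Swiss 9, and 3944 and 3599 in Swiss 19. In non-adipogenic cells it read 118, 30.1 and 19.4 in Swiss 3, 4.94, 6.27 and 11.7 in Swiss 5, and 69.9, 15.7 and 48.3 in Swiss 22. Every preadipose array was far above every non-adipogenic array, and the means of all 3 non-adipogenic lines lay below background. With those lines set to background, Efemp1 was at least 27.6-fold higher in preadipose lines. Its log2 difference was 2.49 ± 0.23 (SE, 4 against 3 lines), with 2.23 in dim arrays alone and 3.06 in bright arrays alone. On values scaled linearly before 32 was added, the log2 difference was 5.32.

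Fbln5, which binds tropoelastin, integrins and Loxl1, lay on the other side. Its main probe set 1416164_at read 3065, 1942 and 2097 in Swiss 2, 3535, 3245 and 3248 in Swiss 8, 2944, 2934 and 2825 in Swiss 9, and 2731 and 2593 in Swiss 19, all preadipose. It read 4197, 3807 and 3754 in Swiss 3, 6851, 5933 and 6509 in Swiss 5, and 6157, 6245 and 5790 in Swiss 22, all non-adipogenic. No preadipose array reached a non-adipogenic one, although the highest array of Swiss 8 came close to the lowest of Swiss 3. The line means averaged 2818 ± 412 in the preadipose class and 5471 ± 1357 in the non-adipogenic class (SD, n = 4 and 3 lines), which is 1.94-fold lower in preadipose lines. The log2 difference was -0.82 ± 0.15 (SE), with -0.47 in dim and -0.86 in bright arrays. The second Fbln5 probe set, 1446377_at, had a line mean above background in Swiss 5 alone and carries little information.

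Loxl1 was lower in preadipose lines by both of its probe sets. The brighter one, 1451978_at, read 9390, 8916 and 8988 in Swiss 2, 8038, 9225 and 8488 in Swiss 8, 9131, 10030 and 9442 in Swiss 9, and 9731 and 10479 in Swiss 19. In the non-adipogenic lines it read 15949, 16391 and 16210 in Swiss 3, 18434, 17146 and 16529 in Swiss 5, and 18520, 20043 and 19087 in Swiss 22. The arrays formed separate bands with a wide gap between the classes, and the preadipose line means lay within 1.18-fold of each other. Their line means averaged 9330 ± 646, against 17590 ± 1529 in non-adipogenic lines (SD, n = 4 and 3 lines), a level 1.89-fold lower. The log2 difference was -0.90 ± 0.09 (SE), with -0.89 in dim and -0.70 in bright arrays. The dimmer Loxl1 probe set, 1436063_at, had line means of 237 to 504 in preadipose and 709 to 776 in non-adipogenic cells, 2.27-fold lower.

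Lox, the founding lysyl oxidase, was read by 2 bright probe sets that did not show the same separation. By 1416121_at it read 29219, 27333 and 28028 in Swiss 2, 17383, 22158 and 26096 in Swiss 8, 19603, 22186 and 22441 in Swiss 9, and 30815 and 29552 in Swiss 19. The non-adipogenic lines read 56668, 60966 and 54206 in Swiss 3, 36820, 31244 and 35803 in Swiss 5, and 41602, 46327 and 43916 in Swiss 22. Each array of Swiss 3 and Swiss 22 was above all preadipose arrays. In scaled intensity the lowest array of Swiss 5 lay just over the highest of Swiss 19. On the normalized log2 scale that array of Swiss 5 read 10.996, below the 11.218 and 11.124 of Swiss 19. The level was 1.78-fold lower in preadipose lines, with a log2 difference of -0.84 ± 0.23 (SE) that did not pass the threshold. It was -1.27 in dim arrays, where Swiss 3, the highest Lox line, is the only non-adipogenic line. In bright arrays it was -0.33, with Swiss 19, the highest preadipose line, as the only one of its class. The parts differ in their lines as well as in brightness, and these cannot be told apart. By 1448228_at the line means ran from 18782 to 28664 in preadipose and from 27206 to 43165 in non-adipogenic lines and overlapped, with Swiss 2 above Swiss 5. The third Lox probe set, 1437903_at, lay near background in both classes.

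Eln itself varied widely between arrays of a line. The line means of 1420855_at were 392 ± 172 (SD) for Swiss 2, 271 ± 136 for Swiss 8, 317 ± 175 for Swiss 9 and 320 ± 81 for Swiss 19, the preadipose lines. Non-adipogenic means were 441 ± 186 for Swiss 3, 337 ± 81 for Swiss 5 and 370 ± 26 for Swiss 22, with 3 arrays a line and 2 for Swiss 19. All lines were above background, and the arrays of each line overlapped those of the next in the order. Differences between arrays of a line made up 85.6% of the sum of squares of Eln, against 52.1% for the median gene. The log2 difference was -0.12 ± 0.06 (SE), and the line means of the classes overlapped. The second Eln probe set, 1420854_at, lay near or below background, and 2 of its 20 arrays passed their own, 1 of Swiss 2 and 1 of Swiss 9.

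Fbln1, Fbln2 and Loxl3 overlapped between the classes. Fbln1, a fibulin of basement membranes and elastic fibres, had log2 difference 0.33 ± 0.18, Fbln2, a partner of fibronectin and nidogens, 0.26 ± 0.19, and Loxl3 0.24 ± 0.10 (SE). These signs depended on the scaling: with arrays centred on their medians they were -0.16, -0.35 and -0.18, and without normalization -0.29, -0.48 and -0.31. Over all genes the median difference moved to -0.063 under the first of these scalings and to -0.19 under the second.

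**Figure D1:**
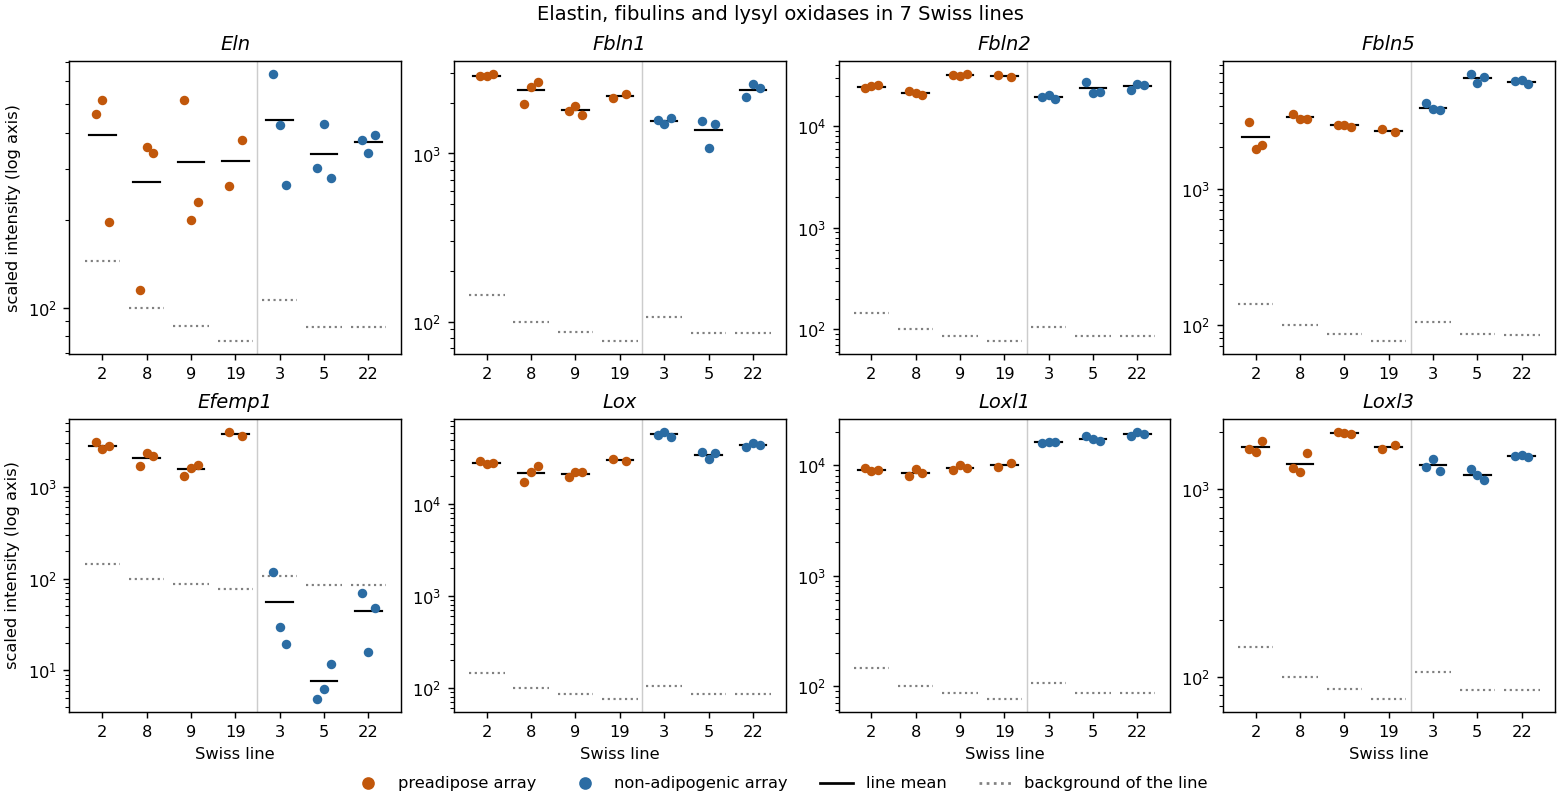
Scaled intensity on a log axis for the 8 genes with a probe set of their own, in 7 Swiss lines, preadipose lines on the left. Points are arrays, bars are line means and dotted lines are the background of each line. Efemp1 lies below background in all 3 non-adipogenic line means, while Loxl1 and Fbln5 form a lower preadipose band.

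**Figure D2:**
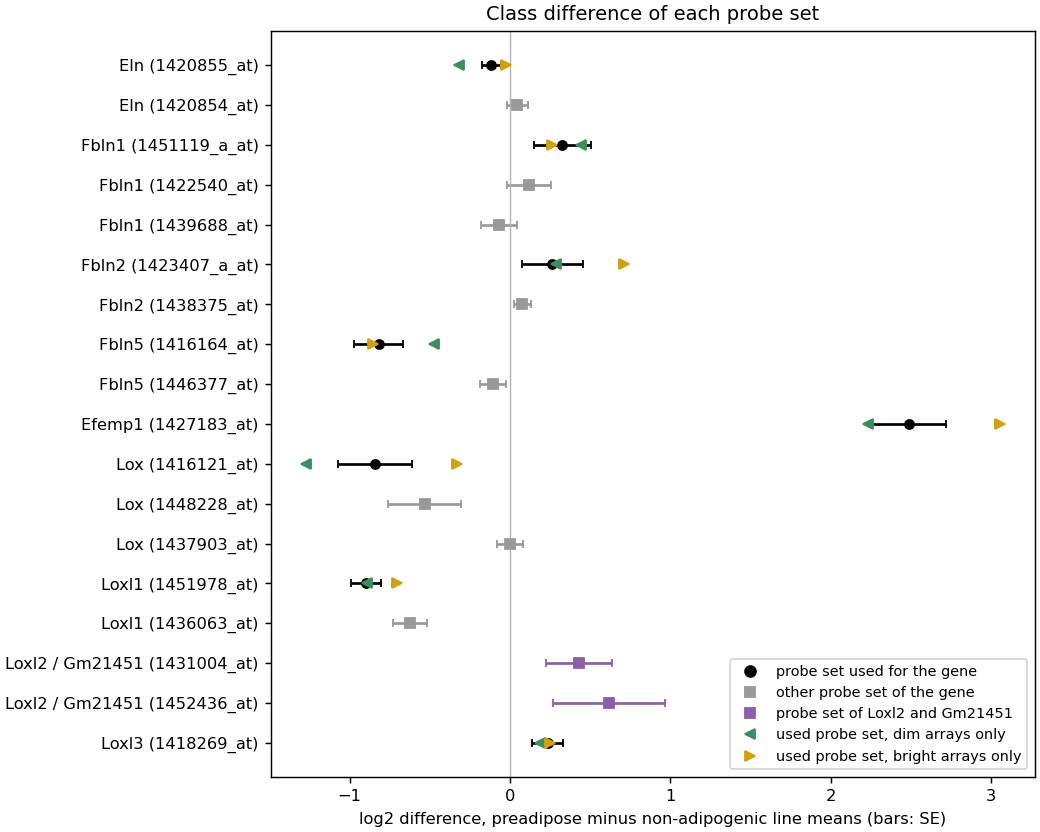
Log2 difference of preadipose minus non-adipogenic line means for all 18 probe sets, with bars of 1 SE, and the same difference within the dim and within the bright arrays for the probe set used for each gene. Efemp1 lies at 2.49, and Lox moves between -1.27 in dim and -0.33 in bright arrays.

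These class values describe why the family was picked and are not a test of it. Over all 18193 genes, limma's fit to the 7 line means with Benjamini-Hochberg adjustment called 105 genes higher and 171 lower in preadipose lines, which is 0.577% and 0.94%. With arrays centred on their medians the counts were 1 and 6, and without normalization 0 and 2. Of the 8 family genes in the quantile-normalized fit, 1 was called higher (Efemp1) and 2 lower (Fbln5 and Loxl1). With median centring or without normalization none of the 8 was called, and with linear scaling before 32 was added Efemp1 alone was. Efemp1, Fbln5, Lox and Loxl1 had line means that did not overlap between the classes, as was so for 14% of all genes. For Lox the log2 means of Swiss 5 and Swiss 19 were almost equal, 11.173 and 11.171, and their arrays overlapped. The median difference over the 8 genes was 0.06, against 0.0033 over all genes. Fbln5 lay at the edge of the threshold, and the call was lost when any 1 line but Swiss 3 was left out. The difference between the classes made up 94.1% of the sum of squares of Efemp1, 93.9% of that of Loxl1, 76.4% of that of Fbln5 and 66.1% of that of Lox, against 6.74% for the median gene.

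The clones of a class were then compared with each other, a contrast that does not use the class difference. Among the 4 preadipose lines, limma's moderated F test on the 20 arrays called 7 of the 8 genes, where it called 23.1% of all genes. All 8 were above background in every preadipose line, and in a fit of the 15168 genes above background in some line, 7 members and 27.4% of those genes were called. That set also holds genes below background in all preadipose lines, so it does not match the members in level. The highest and the lowest preadipose line differed 2.43-fold for Efemp1 and 1.18-fold for Loxl1 in scaled intensity. On the log2 scale the median range of line means over all genes was 0.25. Swiss 19 is the only preadipose line with bright arrays, so the same test was run in Swiss 2, Swiss 8 and Swiss 9, all dim, where 8.65% of all genes and 5 of the 8 members were called.

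Efemp1 differed among the preadipose clones. From high to low the order was Swiss 19, Swiss 2, Swiss 8 and Swiss 9, with arrays overlapping only between Swiss 8 and Swiss 9, and its line means spanned 1.07 on the log2 scale (adjusted p = 4.16e-06, limma F test). Within the dim arrays the span was 0.72 (adjusted p = 0.00826). On values scaled linearly before 32 was added, without quantile normalization, the range was 1.27 and the adjusted p 0.0777 (limma F test). The call of Efemp1 among these lines thus depended on the processing. Its range was wider than those of Fbln2 (0.84) and Lox (0.85) after quantile normalization, but Fbln2 had the wider one with median centring and without normalization, and both had with the larger pseudocount.

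Fbln2 was high in Swiss 9 and Swiss 19. Its main probe set 1423407_a_at read 23673, 25038 and 25338 in Swiss 2, 22351, 21390 and 20523 in Swiss 8, 32338, 31672 and 32526 in Swiss 9, and 32248 and 30435 in Swiss 19. Those of Swiss 9 and Swiss 19 overlapped each other and stood above every other array of either class. The non-adipogenic lines read 19316, 20293 and 18480 in Swiss 3, 27578, 21491 and 22031 in Swiss 5, and 23092, 26061 and 25357 in Swiss 22. The range among preadipose lines was 0.84 on the log2 scale (adjusted p = 5.26e-06, limma F test) and 0.53 among Swiss 2, Swiss 8 and Swiss 9 (adjusted p = 0.00569). After quantile normalization Swiss 19 lay 0.43 and Swiss 9 0.12 above the preadipose mean on the log2 scale, whereas their scaled intensities overlapped. The second Fbln2 probe set, 1438375_at, had a line mean above background in Swiss 19 alone (85.8). It averaged 31.0 in Swiss 9, below background, and carries little information.

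Fbln1 followed another order. Its probe set 1451119_a_at read 2869, 2902 and 2951 in Swiss 2, 1969, 2495 and 2654 in Swiss 8, 1796, 1905 and 1702 in Swiss 9, and 2137 and 2262 in Swiss 19. In the non-adipogenic class it read 1587, 1488 and 1623 in Swiss 3, 1551, 1071 and 1505 in Swiss 5, and 2156, 2578 and 2452 in Swiss 22. Swiss 2 stood above all other lines, Swiss 9 was the low preadipose line, and Swiss 22 reached the level of Swiss 8 and Swiss 19. The range was 0.61 among preadipose lines (adjusted p = 0.00102) and 0.60 among non-adipogenic lines (adjusted p = 0.000416), both by limma's F test. Within the dim preadipose arrays the adjusted p was 0.0075, and within the bright non-adipogenic arrays 0.0117. The second probe set, 1422540_at, had its highest line mean in Swiss 22 at 828 and its lowest in Swiss 5 at 393. In the fit of all probe sets that are no controls it was not called among preadipose lines (range 0.35, adjusted p = 0.185) and was called among non-adipogenic lines (range 0.56, adjusted p = 0.0107, limma F test). The third probe set, 1439688_at, was near background.

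Lox and Loxl3 also differed among preadipose clones. Lox was high in Swiss 19 and Swiss 2 and low in Swiss 8 and Swiss 9, with a range of 0.85 (adjusted p = 0.00013, limma F test) and an adjusted p of 0.0397 within the dim arrays. Loxl3, another crosslinking enzyme of this family, had means of 1664 ± 124 (SD over arrays) for Swiss 2, 1362 ± 175 for Swiss 8, 1984 ± 21 for Swiss 9 and 1665 ± 54 for Swiss 19. Its non-adipogenic means were 1333 ± 106 for Swiss 3, 1189 ± 78 for Swiss 5 and 1499 ± 23 for Swiss 22. Swiss 9 was highest and did not overlap the next line. Its range among preadipose lines was 0.38 (adjusted p = 0.0039) and the adjusted p within the dim arrays was 0.0364. Fbln5 (range 0.38, adjusted p = 0.0417) and Loxl1 (range 0.34, adjusted p = 0.0122) passed over all arrays but not within the dim arrays, where the adjusted p-values were 0.14 and 0.599. Eln did not pass (adjusted p = 0.88).

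Among the 3 non-adipogenic lines, 5 of the 8 genes were called by the F test, where 16.4% of all genes were. With only genes above background in the fit, 4 members and 19.1% of those genes were called, and Loxl1 was lost (adjusted p = 0.0743). Fbln5 was low in Swiss 3 and overlapped between Swiss 5 and Swiss 22, with a range of 0.58 (adjusted p = 0.000497). Lox ran the other way, highest in Swiss 3 and lowest in Swiss 5, with a range of 0.59 (adjusted p = 0.00154). Fbln1 was high in Swiss 22, as given above. Within the bright arrays, which hold 1 array of Swiss 3, 12.5% of all genes were called, and the adjusted p was 0.00684 for Fbln5, 0.0116 for Lox and 0.0117 for Fbln1. Fbln2 (range 0.33, adjusted p = 0.0126) and Loxl1 (range 0.21, adjusted p = 0.0406) passed over all arrays only, with 0.137 and 0.0925 in the bright arrays. Loxl3, Efemp1 and Eln did not pass, with adjusted p-values of 0.0803, 0.64 and 0.949. All of these p-values are from limma with Benjamini-Hochberg adjustment over all 18193 genes.

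**Figure D3:**
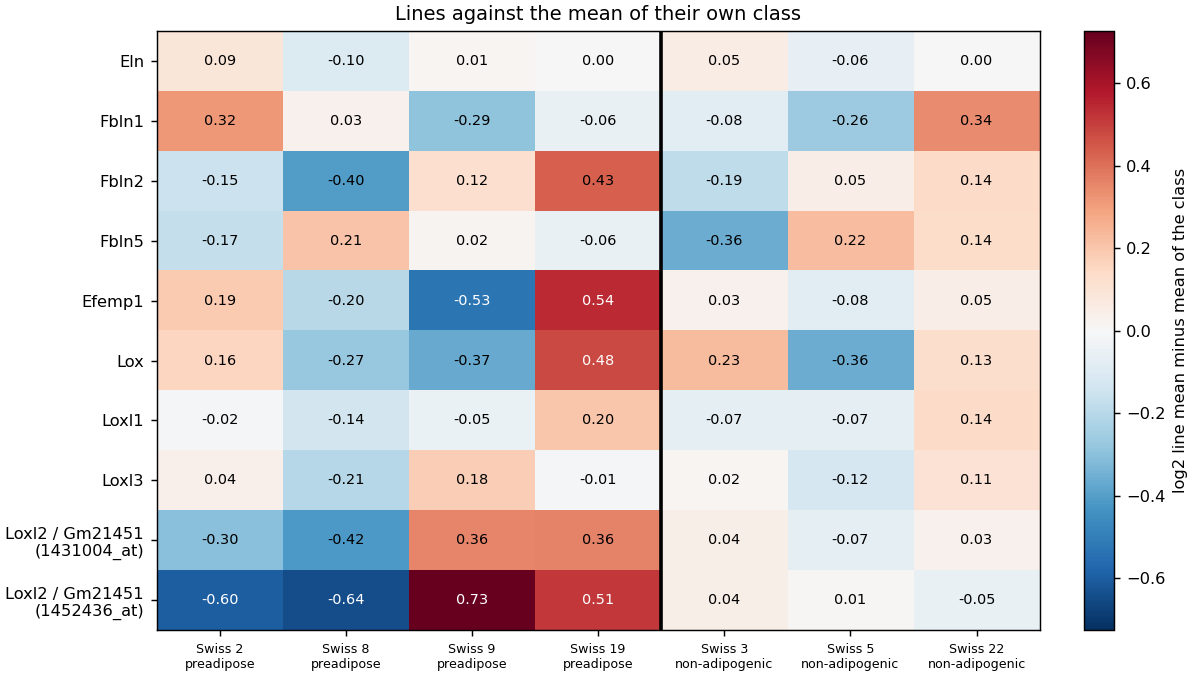
Log2 line mean minus the mean of the line's own class, for 8 genes and the pair of probe sets shared by Loxl2 and Gm21451, preadipose lines on the left. Swiss 19 is high for Efemp1, Lox and Fbln2 (0.54, 0.48 and 0.43), and Swiss 9 is low for Efemp1 and Lox (-0.53 and -0.37).

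Loxl2, a lysyl oxidase-like enzyme that crosslinks collagen IV, could not be read on its own, because both of its probe sets are also annotated to Gm21451. By 1452436_at the preadipose lines read 10.1, 21 and 89.9 in Swiss 2, 8.2, 9.06 and 32 in Swiss 8, 779, 882 and 665 in Swiss 9, and 668 and 585 in Swiss 19. The non-adipogenic lines read 34.6, 17.5 and 86.1 in Swiss 3, 7.9, 71.1 and 6.85 in Swiss 5, and 6.3, 4.58 and 11.4 in Swiss 22. Swiss 9 and Swiss 19 were thus well above background while the other 5 line means, of both classes, lay below it.

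The other shared probe set, 1431004_at, read 152, 210 and 192 in Swiss 2, 10.9, 313 and 42.6 in Swiss 8, 491, 588 and 418 in Swiss 9, and 541 and 524 in Swiss 19. It read 114, 185 and 112 in Swiss 3, 42.4, 30.3 and 155 in Swiss 5, and 121, 21.6 and 162 in Swiss 22. Swiss 9 and Swiss 19 were again highest, with no array of another line reaching theirs. In a fit of all 45037 probe sets that are no controls, added after the data were seen, the F test among preadipose lines gave a range of 1.37 for 1452436_at (adjusted p = 1.58e-09) and 0.78 for 1431004_at (adjusted p = 0.00132), where it called 15.2% of all probe sets. Among Swiss 2, Swiss 8 and Swiss 9 alone, the adjusted p-values were 2.76e-05 and 0.0326, and 4.74% of all probe sets were called. Among the non-adipogenic lines they were 0.804 and 0.926. Which of the 2 genes gave the signal cannot be told from these probe sets.

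**Figure D4:**
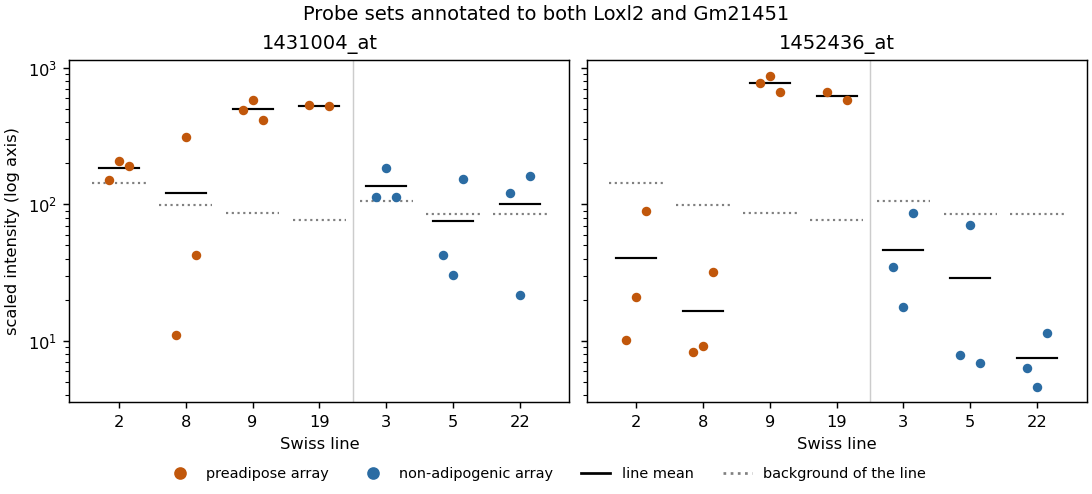
Scaled intensity on a log axis of the pair of probe sets annotated to both Loxl2 and Gm21451, in 7 Swiss lines with the preadipose lines on the left. Points are arrays, bars line means and dotted lines background. The arrays of Swiss 9 and Swiss 19 lie between 418 and 882 and those of the other lines at 313 or below.

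Likeness to other genes was described by Pearson's r over the 7 line means, which share their arrays' brightness and hold the class difference of a gene. Among the 916 genes whose line means spanned at least 1 on the log2 scale, the gene most like Efemp1 was Crip2 (r = 0.97), a LIM-domain protein, followed by the aryl hydrocarbon receptor Ahr (0.97). For Fbln5 they were Pou3f3 and Lrrc8c (0.96 each), for Loxl1 the PDGF receptor gene Pdgfra (0.99) and Vcam1 (0.98), and for Lox the zinc transporter gene Slc39a1 and the cytokine receptor gene Il6st (0.99 each). Fbln1 was most like Dlk1 (0.98), Fbln2 most like Aldh18a1, of proline synthesis, and Tpm2 (0.94 each), Loxl3 most like Fbxo2 (0.95) and Eln most like Aebp1 (0.95). These values rest on 7 points each and carry no test.

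The rest of the elastic fibre pathway was read from lists. Of 20 microfibril genes 18 were in the fit, Fbn1 and Adamts17 not, and 16 lay above background in at least 1 line. None was called by limma in either direction, 4 had an unadjusted p under 0.05, where 15.6% of all genes did, and their median difference was -0.02. The pair with the widest differences were the microfibril-associated glycoprotein genes. Mfap5 averaged 603 ± 480 in preadipose and 1599 ± 523 in non-adipogenic lines (log2 difference -0.97 ± 0.31 SE, adjusted p = 0.187, limma). Mfap2 averaged 540 ± 319 in preadipose and 1388 ± 165 in non-adipogenic lines (SD over lines), at least 2.52-fold lower (log2 difference -0.92, adjusted p = 0.149, limma). With linear scaling both differences were -1.62. The line means of Mfap5 overlapped and those of Mfap2 did not.

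Of 16 fibulin and lysyl oxidase relatives and partners, 15 were in the fit, and the median difference was -0.07. None was called by limma, where 0.577% of all genes were called higher and 0.94% lower. At an unadjusted p under 0.05 limma had 6 of the 15, or 40%, against 15.6% of all genes. The lists were chosen with earlier results of these data known, so these shares are no test of them. Fibronectin, Fn1, on which Lox and fibulins assemble, averaged 29304 ± 5644 in preadipose and 17516 ± 6723 in non-adipogenic lines (log2 difference 0.79, adjusted p = 0.268). Its log2 difference was 0.17 with median centring and 0.04 without normalization. The basement membrane gene Nid2 averaged 117 ± 76 in preadipose and 589 ± 495 in non-adipogenic lines (log2 difference -0.79, adjusted p = 0.19, limma). Its difference was -1.98 with linear scaling before 32 was added, and only 2 of the 4 preadipose line means of Nid2 lay above background. Of 15 elastin receptors and elastin-cutting enzymes, all in the fit, none was called by limma, and the median difference was 0.02. At an unadjusted p under 0.05 limma had 5 of the 15, or 33.3%, against the same 15.6% of all genes. The elastin-cutting protease gene Ctsk averaged 334 ± 252 in preadipose and 1491 ± 1026 in non-adipogenic lines (log2 difference -1.19, adjusted p = 0.191, limma). Its difference was -2.28 with linear scaling, and 3 of the 4 preadipose line means of Ctsk lay above background. Itga5, a chain of the fibronectin receptor, averaged 2452 ± 546 in preadipose and 1186 ± 275 in non-adipogenic lines (log2 difference 0.80, adjusted p = 0.0563), with no overlap of line means. With median centring its difference was 0.36 and without normalization 0.24. All of these p-values are limma's with Benjamini-Hochberg adjustment over all genes.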

How the data were processed

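RNA of 20 samples was hybridized to 3' oligonucleotide arrays, 1 array a sample, after oligo-dT priming and transcription into biotinylated RNA, per the labels' protocols. The deposited values are linear intensity per probe set. How the authors summarized and scaled them is not given in the sources used here, nor is a scan batch. Intensity totals are no read depth, so precision is limited by the number of arrays and lines.

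From the deposited intensity, log2(intensity + 32) was quantile-normalized over all probe sets. A gene was represented by its brightest probe set with 1 symbol, which gave 18193 genes, with no filter on dim genes. Class differences came from lmFit and eBayes (limma 3.58.1, R 4.3.3) on the mean of each of 7 lines, and limma's moderated F test compared the lines of a class on 20 arrays. P-values were adjusted by Benjamini-Hochberg over all genes with a threshold of 0.05. The fits were also run on simulated data with independent noise, without differences in array brightness and without a normalization step. That run therefore cannot speak to how the calls shift with scaling. Scaled intensity is each array at a trimmed mean of 500, with 2% left out at each end. Folds are ratios of class means of line means, with lines below background set to background.

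The members and lists were chosen with earlier results of these data known. All members were named, each with the genes of highest Pearson's r over line means, and from each pathway list the called genes or, with none, the pair with the largest differences above background. Alternatives concerned normalization, pseudocount, filter, probe set choice, replicate block, brightness, and each array or line left out.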

Additional observations from a re-analysis of the deposited data

How the results depend on the processing

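The class call of Fbln5 held in 17 of 40 alternatives, that of Loxl1 in 36 and that of Efemp1 in 37. These genes were picked with their class differences known, and many of the alternatives leave out only 1 array. The counts therefore describe the processing and are no support for the calls. Over the 40 alternatives the class difference of Eln, Fbln5, Efemp1, Lox and Loxl1 kept its sign in all, and that of Fbln1, Fbln2 and Loxl3 in 38. Class calls, 105 genes higher and 171 lower in preadipose lines, became 1 and 6 with arrays centred on medians, 0 and 2 without normalization, and 33 and 50 with linear scaling before the pseudocount. Genes called higher were 59 with the larger pseudocount, 169 with genes above background only, and 194 within dim arrays. They were 0 and 0 within bright arrays, with 1 preadipose line, and 971 and 1089 with a random block for lines. Without a whole line they were 34 and 72 (Swiss 2), 35 and 50 (Swiss 8), 40 and 91 (Swiss 9), 182 and 288 (Swiss 19), 21 and 58 (Swiss 3), 19 and 40 (Swiss 5), and 17 and 38 (Swiss 22). The 1 member called higher became 0 with median centring, without normalization and within bright arrays, and 2 with the random block. The 2 called lower became 0 with median centring, without normalization, with linear scaling and within bright arrays. They became 1 with the larger pseudocount, all probe sets of 1 symbol, the mean over probe sets, the brightness block, within dim arrays and without any 1 line except Swiss 3. Leaving out 1 array gave 1 to 2. With the larger pseudocount the log2 differences of Mfap5, Mfap2, Nid2, Ctsk and Itga5 were -0.50, -0.45, -0.32, -0.59 and 0.49. At an unadjusted p under 0.05, limma had 798 genes higher and 776 lower within bright arrays, and 11 and 367 without normalization.

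Genes called among preadipose lines, 4204 of 18193, became 12490 with median centring, 12732 without normalization and 1573 within dim arrays. A fit of the probe sets of 1 symbol called 6324 probe sets. A fit of all 45037 probe sets that are no controls, added after the data were seen, called 6864. That is 15.2% of probe sets, against 23.1% of genes in the main fit. Among non-adipogenic lines, 2986 genes became 10751 with median centring and 11527 without normalization. The same fits of probe sets called 4571 and 5000 probe sets there. The 7 preadipose members became 8 with median centring and without normalization, where most genes were called as well. They became 4 with linear scaling, where 3218 of the 18193 genes were called. Linear scaling ended the calls of Fbln5 (adjusted p = 0.0719), Efemp1 (0.0777) and Loxl1 (0.344, all limma). The 5 non-adipogenic members became 7 with median centring and without normalization, where again most genes were called. They became 3 with linear scaling and with a pseudocount of 8, which ended the calls of Fbln2 and Loxl1. Of all genes, 2232 were called with linear scaling and 2427 with a pseudocount of 8. Leaving out 1 array gave 5 to 7 preadipose and 3 to 6 non-adipogenic members, the 3 without Swiss 3 replicate 3. The genes called then numbered 3116 to 4344 among preadipose and 2405 to 3141 among non-adipogenic lines. The calls of Fbln1, Fbln2, Lox and Loxl3 among preadipose lines stood in all 31 alternatives. Those of Fbln1, Fbln5 and Lox among non-adipogenic lines did as well. Most of the 31 leave out only 1 array, and the share of all genes whose calls stood in all was not computed. The count therefore describes the processing and is no support for these calls. With the replicate number as a replicate block, 109 genes were called higher and 183 lower, 4037 and 2909 differed among lines, and the member counts did not change. Same-numbered arrays of different lines did not deviate together: 0 of 57 pairs correlated above 0.1, with a highest value of 0.048. The causes of these shifts were not tested.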
